A study of Caenorhabditis elegans with 2 samples.

Results

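The 10 genes described here encode core parts of the insulin/IGF-1 signalling pathway of Caenorhabditis elegans and regulators tied to it: daf-2, age-1, pdk-1, daf-18, akt-1, akt-2, sgk-1, rict-1, daf-16 and pqm-1. They were taken by name from the Ensembl annotation of assembly WBcel235, in which all 10 matched 1 gene each, out of 19973 nuclear protein-coding genes. The question was where a tagged transcription factor lay on chromatin at these genes. The data are lists of peaks from chromatin immunoprecipitation followed by sequencing (ChIP-seq) of whole L2 larvae, with sexes pooled and chromatin sheared by sonication. The single group holds 2 biological replicates of strain OP178, with genotype unc-119(ed3) III and transgene wgIs178, which expresses SKN-1 with GFP and FLAG at its C terminus. The antibody field names skn-1, whereas the free-text description of both libraries names PHA-4, a forkhead factor, so the protein is taken from the strain and antibody labels. There is no second condition, and whole animals do not show in which cells a peak arose.

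In this pathway the receptor DAF-2 activates the phosphoinositide 3-kinase AGE-1, whose lipid product recruits the kinases PDK-1, AKT-1 and AKT-2, and the lipid phosphatase DAF-18 removes that product. The AKT kinases keep the FOXO factor DAF-16 out of the nucleus. In the intestine AKT and the related kinase SGK-1 keep SKN-1 out of the nucleus. SGK-1 acts downstream of the TOR complex 2 subunit RICT-1. The pathway is known in worms for its control of dauer arrest, stress resistance and lifespan, and its kinases act upstream of the protein that was precipitated.

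A peak was counted at a gene when its summit lay from 1000 bp upstream to 200 bp downstream of any annotated 5' end, or elsewhere inside the gene. The list of reproducible peaks, called optimal by the irreproducible discovery rate (IDR) procedure, holds 872 peaks. The lists from which it was made hold 13302 peaks for the pooled libraries, 24771 for replicate 1 and 28630 for replicate 2, and these 3 lists reach down to weak peaks, with q up to 0.96 in each. The deposited signal of a peak is on the scale of its own list, so ranks by signal, with rank 1 the strongest, are given with the length of the list. The optimal list is the 872 strongest peaks of the pooled list, so a gene's rank is the same in both. The peak lists do not give read depth.

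Reproducible peaks lay at 5' ends of 2 of the 10 genes, the kinase genes akt-2 and sgk-1, against 3.89% of all nuclear protein-coding genes. No member had an optimal summit in the gene body only, against 0.516% of all genes. The strongest other signal near a member in the optimal and pooled lists lay upstream of daf-2, beyond the counted window. Peaks with q at most 0.05, a threshold chosen after the data were seen, lay at a 5' end of akt-2, sgk-1 and rict-1 in replicate 1 and at the same 3 genes in replicate 2. That rule called 9.14% of all genes in replicate 1, 10.5% in replicate 2 and 5.39% in both. In the pooled list it called akt-2 and sgk-1, against 7.70% of all genes. At the 2 genes that set the lipid signal, the lowest q in any list was 0.855 for age-1 and 0.522 for daf-18.

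Equal numbers of peaks from each replicate gave a shorter set. Among the 872 strongest peaks of replicate 1 only akt-2 of the 10 members had a summit at a 5' end, against 3.80% of all genes, and among the 872 strongest of replicate 2 again only akt-2, against 3.62%. The sgk-1 peak, rank 1067 in replicate 1 and 1936 in replicate 2, lay below that depth in each replicate and entered the optimal list through its pooled rank of 817. In gene bodies only, the 872 strongest peaks of replicate 1 held none of the members (0.546% of all genes), and those of replicate 2 held daf-16 (0.601%).

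The full relaxed lists reached most members. The pooled list had a 5' end summit at 7 of 10 members, against 29.2% of all genes, and a summit in the body only at daf-2, against 9.87%. Replicate 1 had 5' end summits at 9 members, against 41.0%, and a body summit only at daf-16, against 16.5%. Replicate 2 had them at 8 members, against 43.5%, and body summits only at daf-2 and akt-1, against 18.0%. In both replicates 7 members had a 5' end summit, against 27.2% of all genes. These genes are longer than most, with a median of 6.96 kb against 2.03 kb, and have more annotated 5' ends, with a median of 2.5 against 1, which widens the sequence searched. The part of gene size in these counts was not tested. Among genes with 2 or more 5' ends, 5 of 7 members had a pooled summit at one, against 41.3% of all such genes, and 1 of 7 an optimal one, against 5.28%. Among genes with 1 annotated 5' end the pooled count was 2 of 3 members, against 24.6%, and the optimal count 1 of 3, against 3.37%.

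**Figure D1:**
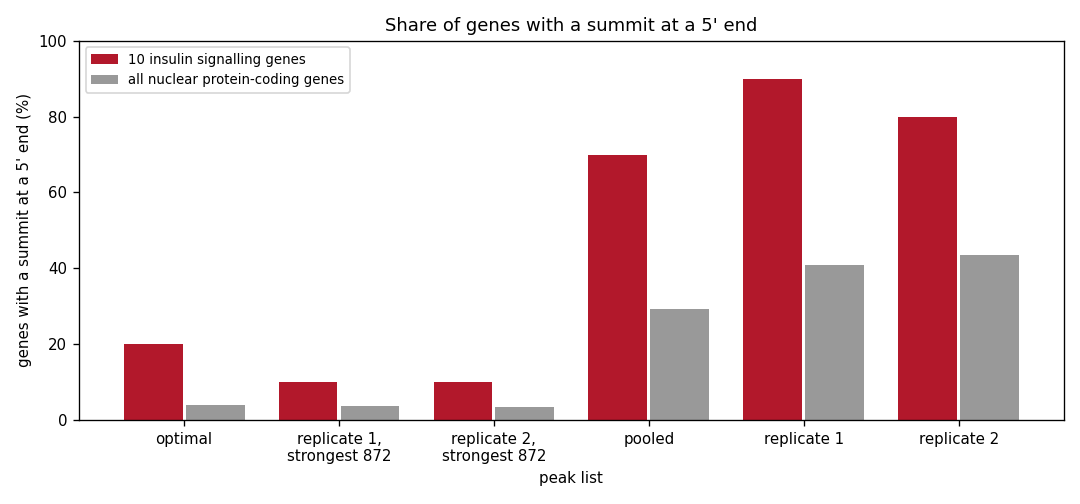
Share of genes (%) with a summit at a 5' end in 6 peak lists, for the 10 insulin signalling genes (red, left) and all 19973 nuclear protein-coding genes (grey, right); bars start at 0 and have no error, since each is 1 count over genes. The bars of the optimal list stand for 2 of 10 members and 3.89% of all genes, and those of each replicate's 872 strongest peaks for 1 of 10 members.

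The members with a reproducible peak, akt-2 and sgk-1, are kinase genes, and akt-1, pdk-1 and age-1, which also encode kinases, had none. AKT-2 is 1 of the pair of AKT kinases that phosphorylate DAF-16. The gene akt-2 (WBGene00000103, chromosome X 14147700 to 14152070, plus strand) has 2 transcripts, F28H6.1a.1 and F28H6.1b.1, with a common 5' end. Its optimal peak spanned X 14146856 to 14147195, with a signal of 60.3, rank 328 of 872 and a q of 0.00147. That is the smallest q in the list, and other peaks share it, such as those of rank 67, 156 and 306. The summit lay 674 bp upstream of that 5' end and in the window of no other protein-coding gene. In replicate 1 the peak ranked 387 of 24771 (signal 40.8, q 0.00117, the smallest q of that list) with its summit 726 bp upstream. In replicate 2 it ranked 470 of 28630 (signal 18.7, q 0.01, the smallest q of that list and shared by other peaks) with its summit 686 bp upstream. The 2 summits were 40 bp apart, and the peak was in the top 1.56% of replicate 1's list and the top 1.64% of replicate 2's.

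A further peak upstream of akt-2 was seen in replicate 2. Its summit lay 1853 bp from the 5' end, outside the counted window, with a rank of 444 of 28630 (signal 19.1, q 0.01), a little ahead of the nearer peak in that library. No peak of replicate 1 overlapped it. In the pooled list it ranked 2893 of 13302 (q 0.158), and it was not in the optimal list. Inside akt-2 the relaxed lists held a peak of rank 8606 and one of rank 14682 in replicate 1 and one of rank 14619 in replicate 2, none of which overlapped a peak of the other library.

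The sequence under the akt-2 summit is shown because it carries the strongest member peak without any SKN-1 word. The words searched, on both strands and within 100 bp of a summit, were the SKN-1 word in its 8 forms (AATATCAT, AATGTCAT, ATTATCAT, ATTGTCAT, TATATCAT, TATGTCAT, TTTATCAT and TTTGTCAT), the short SKN-1 word ATCAT or GTCAT, the DAF-16 word GTAAACA or GTAAATA, the DAF-16-associated word TGATAAG, the GATA word TGATAA, the strict PHA-4 word TGTTTAC or TGTTTGC, and GAGAGAGA. The short SKN-1 word lies within the SKN-1 word, TGATAA lies within TGATAAG, and the DAF-16 word GTAAACA is the reverse complement of TGTTTAC. A match is a description and no evidence of a site. Capitals mark every whole match to any of these words, and sequences are printed 5' to 3' on the strand of the gene, from the WBcel235 (ce11) genome of RefSeq, with the summit in the middle.

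akt-2, chrX:14146926-14147126, plus strand: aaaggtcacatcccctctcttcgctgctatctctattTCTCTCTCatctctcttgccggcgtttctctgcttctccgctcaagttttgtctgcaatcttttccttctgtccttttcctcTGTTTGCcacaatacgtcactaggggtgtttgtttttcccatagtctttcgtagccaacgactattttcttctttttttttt

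The window held GAGAGAGA on the opposite strand, 63 bp before the summit, and TGTTTGC from 19 bp after it. GAGAGAGA was present in 7.01% of the 870 nuclear optimal windows and in 2.73% of 19973 windows of the same 201 bp ending at the most upstream 5' end of each protein-coding gene. The strict PHA-4 word was present in 13.7% and 8.72% of these. Neither the SKN-1 word (27.6% of optimal windows and 11.2% of 5' end windows) nor its short form (69.9% and 54.3%) was found at akt-2. The more distal summit of the pooled list, 1848 bp upstream, had both forms of the short word within 100 bp. It also had TGATAAG and GTAAACA, the last being the same bases as TGTTTAC on the other strand.

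SGK-1 is a serum- and glucocorticoid-regulated kinase homologue that acts downstream of TOR complex 2. The gene sgk-1 (WBGene00004789, chromosome X 16254842 to 16262122, minus strand) has 3 transcripts with 3 different 5' ends. Its optimal peak spanned X 16260129 to 16260468, with a signal of 44.2, rank 817 of 872 and a q of 0.00429. The summit lay 171 bp upstream of the 5' end of transcript W10G6.2a.2, which starts inside the gene, and in an intron of the other transcripts, W10G6.2a.1 and W10G6.2b.1. It lay 1823 bp downstream of the most upstream 5' end, so the peak is at the internal start. Replicate 1 placed the summit 171 bp upstream of the same 5' end, rank 1067 of 24771 (signal 28.8, q 0.00797), and replicate 2 placed it 176 bp upstream, rank 1936 of 28630 (signal 11.6, q 0.0194). The replicates thus agree on the position to 5 bp, with the peak in the top 4.31% of replicate 1's list and the top 6.76% of replicate 2's.

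The outer 5' ends of sgk-1 had weaker peaks. In replicate 1 a summit lay 127 bp upstream of W10G6.2a.1 (rank 3157, q 0.0962), and in replicate 2 a summit lay 96 bp downstream of W10G6.2b.1 (rank 6283, q 0.225). These peaks were 294 bp apart at their summits. In the pooled list the outer peak ranked 10546 of 13302 (q 0.873), far below the internal one. The sequence under the internal summit is shown because it carries repeated TGATAAG.

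sgk-1, chrX:16260199-16260399, minus strand: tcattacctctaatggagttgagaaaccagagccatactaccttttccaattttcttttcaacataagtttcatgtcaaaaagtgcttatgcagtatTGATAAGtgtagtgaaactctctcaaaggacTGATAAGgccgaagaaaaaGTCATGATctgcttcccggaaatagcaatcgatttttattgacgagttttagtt

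TGATAAG, known as the DAF-16-associated element and, in worms, as a PQM-1 binding word, was present from 3 bp before the summit and again from 28 bp after it, on the strand of the gene in both places. At least 1 copy was found in 19.1% of optimal windows and 7.11% of 5' end windows. The share of windows with repeated copies was not counted. The short SKN-1 word was present as GTCAT from 47 bp after the summit and, on the opposite strand and overlapping it, as ATCAT from 50 bp after. The SKN-1 word of 8 letters was not in the window. The outer pooled summit of sgk-1 had 1 TGATAAG and no SKN-1 word of either length.

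AKT-1 is the other AKT kinase. The gene akt-1 (WBGene00000102, chromosome V 10248905 to 10252845, plus strand) had no optimal peak, and its replicates placed their strongest summits within the window and gene at different points. In replicate 2 the strongest lay 328 bp downstream of the 5' end of C12D8.10c.1, in an intron of all 3 transcripts and beyond the 200 bp limit of the window (rank 1172 of 28630, signal 13.8, q 0.0107). In replicate 1 the overlapping peak ranked 15490 of 24771 (q 0.789). That of replicate 1 lay 894 bp upstream of C12D8.10b.1 (rank 2855, signal 20.1, q 0.0737), where replicate 2 had no peak. Further upstream, outside the window, replicate 1 had a stronger summit at 1881 bp (rank 2579, q 0.0537), and the overlapping peak of replicate 2 ranked 21170. The pooled list gave rank 2956 to the intronic peak (V 10249113 to 10249452, q 0.166). It gave rank 10813 to the peak 895 bp upstream and rank 4118 (q 0.339) to the one further upstream, at 1991 bp. The intronic window is shown because it is intronic, as the reproducible sgk-1 peak is, and carries several of the words.

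akt-1, chrV:10249183-10249383, plus strand: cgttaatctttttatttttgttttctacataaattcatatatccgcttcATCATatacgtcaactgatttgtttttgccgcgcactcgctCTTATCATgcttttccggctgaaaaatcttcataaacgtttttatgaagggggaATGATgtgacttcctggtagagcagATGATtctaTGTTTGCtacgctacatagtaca

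ATCAT was matched at 51 and 7 bp before the summit and, on the opposite strand, at 44 and 69 bp after it. TGATAAG on the opposite strand, from 10 bp before the summit, overlapped one of these. The strict PHA-4 word TGTTTGC was matched from 78 bp after the summit, and the SKN-1 word of 8 letters was not found.

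**Figure D2:**
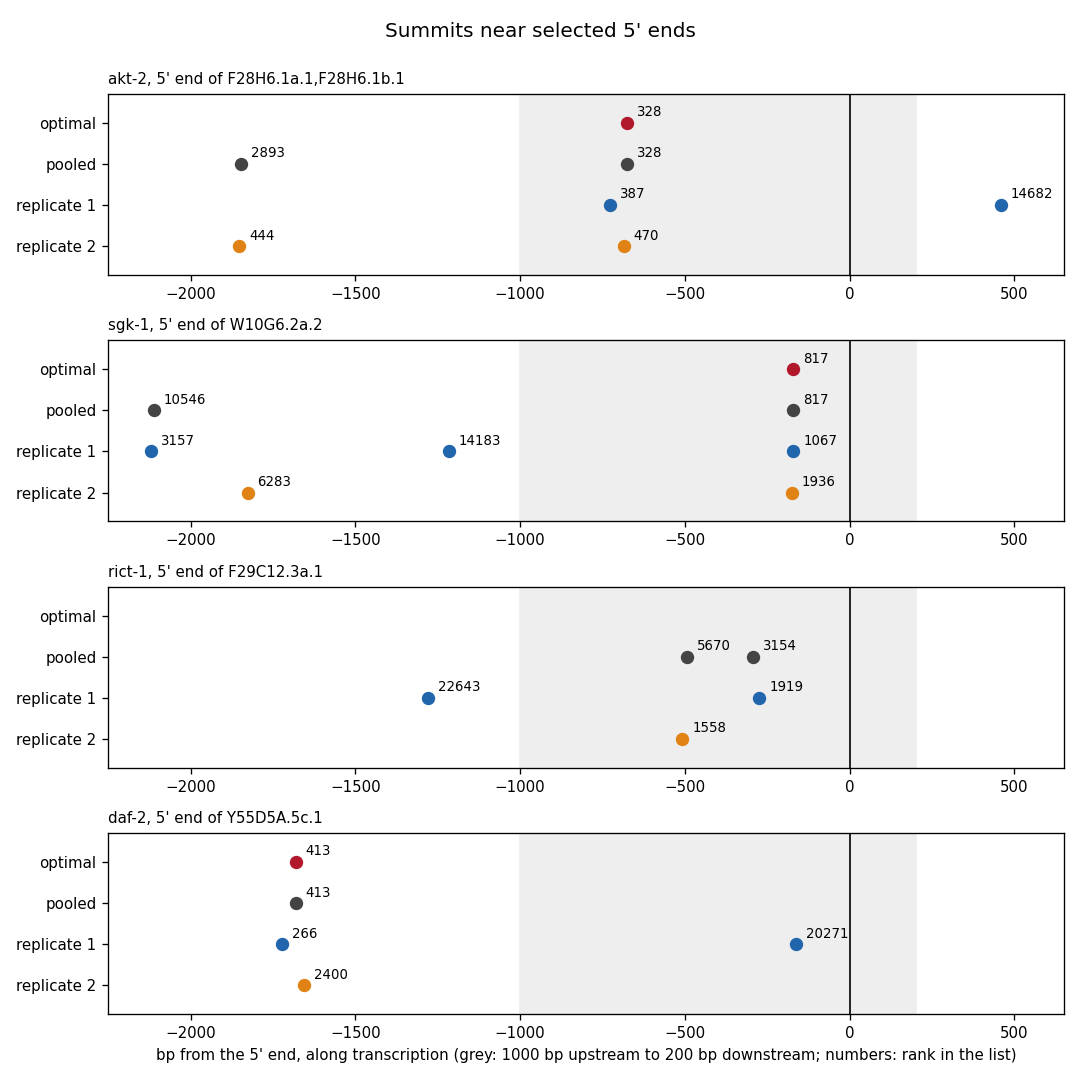
Summit positions in bp from the 5' end of akt-2, the internal 5' end of sgk-1, and the most upstream 5' ends of rict-1 and daf-2, in each of 4 lists (rows), with the rank in the list beside each point; grey marks 1000 bp upstream to 200 bp downstream. At akt-2 and at sgk-1 the points of the optimal peak line up over all 4 lists, and the further points there are not in the optimal list. At rict-1 replicate 1 (rank 1919) and replicate 2 (rank 1558) lie 234 bp apart, and at daf-2 the optimal summit lies 1681 bp upstream.

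RICT-1, the worm Rictor, is the defining subunit of TOR complex 2 and acts upstream of SGK-1. The gene rict-1 (WBGene00009245, chromosome II 13098239 to 13116810, minus strand) had no optimal peak but had peaks of q under 0.05 at its outer 5' end in each replicate. The summit of replicate 1 lay 274 bp upstream of F29C12.3a.1 (rank 1919 of 24771, signal 23.2, q 0.0216), and that of replicate 2 lay 508 bp upstream (rank 1558 of 28630, signal 12.5, q 0.0138). The peaks overlapped, and their summits were 234 bp apart. The pooled list held 2 overlapping peaks, of rank 3154 (292 bp upstream, q 0.199) and rank 5670 (494 bp upstream, q 0.519). All of these summits were also in the window of gfm-1, which encodes a mitochondrial elongation factor G and is transcribed in the other direction. The summit of replicate 2 was 165 bp upstream of the gfm-1 5' end and so nearer to it, whereas that of replicate 1 was nearer to rict-1. At the internal 5' end of F29C12.3c.1 the lists held weak peaks, of rank 9505 in the pooled list and 13722 in replicate 1.

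rict-1, chrII:13117002-13117202, minus strand: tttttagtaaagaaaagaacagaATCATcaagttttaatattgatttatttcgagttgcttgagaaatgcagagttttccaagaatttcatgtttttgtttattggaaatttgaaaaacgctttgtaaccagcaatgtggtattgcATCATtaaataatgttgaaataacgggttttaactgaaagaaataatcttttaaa

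This window of the stronger pooled rict-1 peak is printed for comparison with the kinases. It held ATCAT 77 bp before and 46 bp after the summit and none of the other words, and its GC content was 26.4%. That of the akt-1 window was 36.3%, and the windows of the reproducible peaks had 42.8% at akt-2, 35.8% at sgk-1 and 27.7% in the stretch printed for daf-2.

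DAF-2, the insulin/IGF-1 receptor, is at the head of the pathway. The gene daf-2 (WBGene00000898, chromosome III 2994514 to 3040846, minus strand) is 46.3 kb long, with 7 transcripts from 7 different 5' ends. No optimal summit lay in its windows or body. An optimal peak upstream of it, outside the rule, spanned III 3042357 to 3042696, with a signal of 55.2, rank 413 of 872 and a q of 0.00364. Its summit lay 1681 bp upstream of the 5' end of Y55D5A.5c.1, the most upstream one, and daf-2 was the protein-coding gene with the nearest 5' end. The peak overlapped the last exon of the neighbour cutl-25, a gene of the cuticlin-like family on the same strand. The overlapping peak ranked 266 of 24771 in replicate 1 (q 0.00117) and 2400 of 28630 in replicate 2, the summits lying 66 bp apart. Its place relative to the 872 strongest peaks thus differed between the replicates. The sequence is shown because it holds the full SKN-1 word more than once, and it begins after the last base of the annotated cutl-25 exon, with the summit at base 66.

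daf-2, chrIII:3042427-3042592, minus strand: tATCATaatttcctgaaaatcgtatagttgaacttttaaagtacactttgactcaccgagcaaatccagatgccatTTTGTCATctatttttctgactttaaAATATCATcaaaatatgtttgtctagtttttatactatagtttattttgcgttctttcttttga

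The SKN-1 word was matched 3 times within 100 bp of this summit, all on the strand of the gene. TTTGTCAT began 11 bp and AATATCAT 37 bp after the summit. TTTATCAT began 67 bp before it, of which the part outside the exon is printed. Within 100 bp there was also a DAF-16 word, GTAAATA, 85 bp before the summit, and TGATAA on the opposite strand, overlapping TTTATCAT.

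Inside daf-2 the peaks were weak and differed between the replicates. Replicate 1 had summits at 3 of the 5' ends, 164 bp upstream of Y55D5A.5c.1, 21 bp upstream of Y55D5A.5a.1 and 109 bp upstream of Y55D5A.5f.1, with ranks of 20271, 13158 and 16522. Replicate 2 had no summit at any. The strongest body peak ranked 5707 in replicate 1 (q 0.316), 4339 in replicate 2 (q 0.112) and 5620 in the pooled list (q 0.516), each at another place in the gene. The pooled list held 0.0863 summits per kb of the gene, against 0.133 per kb over the nuclear genome. Replicate 1 held 0.324 per kb, against 0.247, and replicate 2 held 0.216 per kb, against 0.285, so the replicates lay on different sides of their genome values.

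AGE-1 is the catalytic subunit of phosphoinositide 3-kinase. The gene age-1 (WBGene00000090, chromosome II 11519328 to 11527054, minus strand) had no pooled peak at all. Replicate 1 had a summit 7 bp upstream of B0334.8a.1 with rank 18040 of 24771 (q 0.855), and replicate 2 had one 247 bp upstream with rank 23584 of 28630 (q 0.867). Both fell in the weaker part of the list. Every member but age-1 and pqm-1 had a pooled summit at a 5' end or in the body.

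PDK-1 is the kinase that activates AKT and SGK-1. The gene pdk-1 (WBGene00003965, chromosome X 1321344 to 1327986, plus strand) had no optimal peak. Its pooled peak at the 5' end lay near the edge of the window, 963 bp upstream of H42K12.1b.1 (rank 4377 of 13302, q 0.373). The overlapping peak of replicate 2 was stronger in its list, at rank 3184 (976 bp upstream, q 0.0564), than that of replicate 1, at rank 11762 (908 bp upstream, q 0.664). A peak in the first part of the gene, in an intron of both transcripts and 1811 bp downstream of the nearer 5' end, ranked 5780 in the pooled list, 5559 in replicate 1 (q 0.297) and 13234 in replicate 2 (q 0.574).

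DAF-18 is the lipid phosphatase that opposes AGE-1. The gene daf-18 (WBGene00000913, chromosome IV 420011 to 425177, minus strand) has 1 transcript, T07A9.6.1. Its pooled summit lay 12 bp upstream of the 5' end, rank 9567 of 13302 (q 0.817). Replicate 1 had rank 8786 (15 bp upstream, q 0.522) and replicate 2 rank 22408 (205 bp upstream, q 0.84). All these summits also lay in the window of the neighbour garr-1, and the best-placed, that of replicate 1, was at 35.5% of its list.

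DAF-16, the FOXO transcription factor, is the main nuclear output of the pathway. The gene daf-16 (WBGene00000912, chromosome I 10750498 to 10776703, plus strand) is 26.2 kb long, with 11 transcripts from 7 different 5' ends. It had no optimal peak. The pooled list held 11 summits inside the gene, 9 of them in introns, or 0.42 per kb, against 0.133 per kb over the nuclear genome. Replicate 1 likewise had 0.42 per kb, against 0.247, and replicate 2 had 0.611 per kb, against 0.285. Other, shorter members were denser: akt-1 had 0.507 per kb in the pooled list and 0.761 in replicate 1. In replicate 2 pqm-1 had 0.907 per kb. Of the 11 pooled daf-16 summits, 1 was at a 5' end, 20 bp downstream of R13H8.1l.1 and R13H8.1m.1. That summit lay in coding sequence of 9 transcripts (rank 10012, q 0.839).

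The strongest pooled daf-16 peak was the member peak nearest below the optimal list. It spanned I 10753049 to 10753388, with a signal of 36.9, rank 1333 of 13302 and a q of 0.0139. Its summit lay 2259 bp downstream of the 5' end of R13H8.1d.1 and R13H8.1k.1, in an intron of 5 transcripts and upstream of the 6 others. It ranked 2492 of 24771 in replicate 1 (q 0.0496) and 1658 of 28630 in replicate 2 (q 0.016), with summits 91 bp apart, at 10.1% of the list of replicate 1 and 5.79% of that of replicate 2. The strongest daf-16 peak of replicate 2 was another one, 4695 bp upstream of R13H8.1b.1 and R13H8.1c.1 in an intron of 5 transcripts, at rank 684 (signal 16.5, q 0.01), and no peak of replicate 1 overlapped it. In the pooled list that peak ranked 9935 (q 0.835).

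With peaks of q at most 0.05, daf-16 had a summit in the body only in replicate 1, where 1.77% of all genes did. In replicate 2, where 2.37% of all genes did, akt-1, daf-16 and pqm-1 had one. Of the replicates only replicate 2 had summits near 5' ends of daf-16, 676 bp upstream of R13H8.1h.1 (rank 4650, q 0.124), 110 bp upstream of R13H8.1b.1 and R13H8.1c.1 (rank 9132) and 20 bp downstream of R13H8.1l.1 (rank 8939).

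PQM-1 is a zinc finger factor that in worms is nuclear when DAF-16 is not. The gene pqm-1 (WBGene00004096, chromosome II 11150391 to 11152595, minus strand) had no optimal peak and no pooled peak in its window or body. The nearest pooled peak upstream lay 1350 bp from the 5' end of F40F8.7.1, outside the window (rank 2417 of 13302, q 0.0954), with rank 2349 in replicate 1 (q 0.0432) and 4150 in replicate 2 (q 0.105). Within the window the replicates had different weak peaks, 677 bp upstream in replicate 1 (rank 8565) and 184 bp upstream in replicate 2 (rank 15866). The strongest in the gene was that of replicate 2 in the 3' UTR, 2113 bp downstream of the 5' end (rank 1263, signal 13.4, q 0.0123), and no peak of replicate 1 overlapped it.

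**Figure D3:**
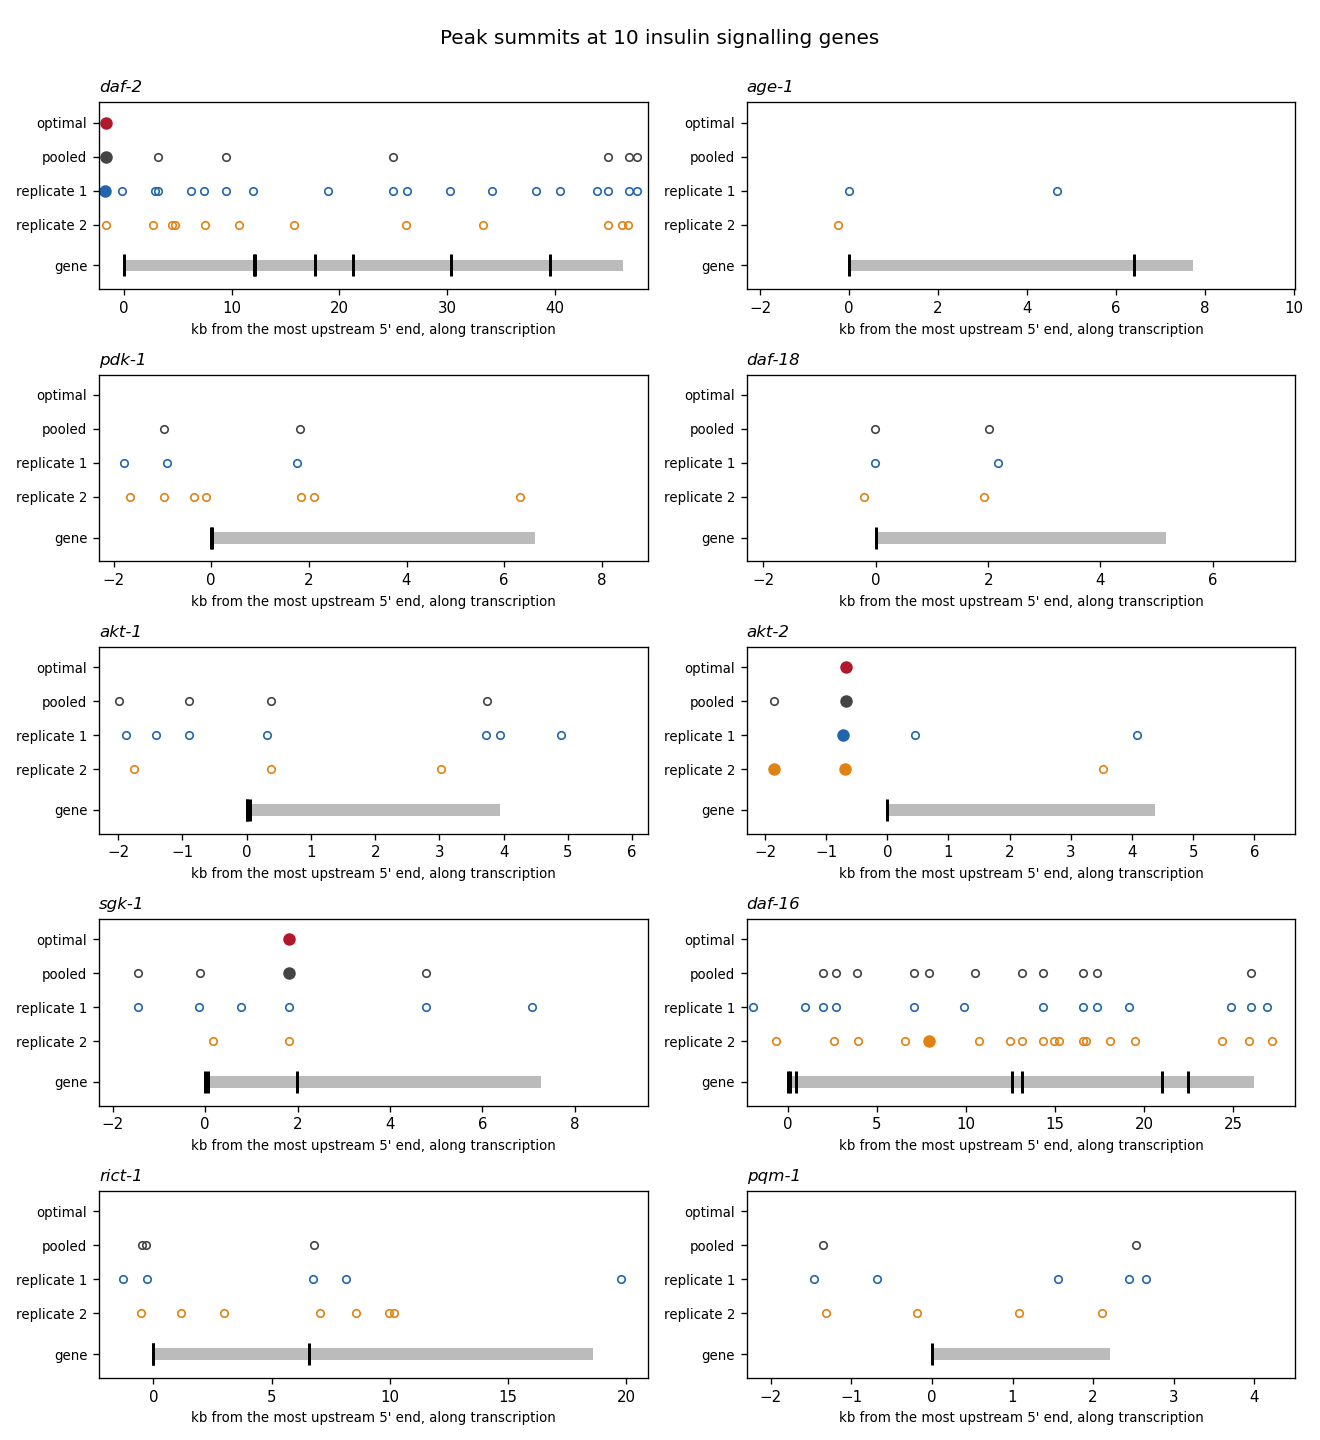
Summits of 4 peak lists (rows) at each of the 10 genes, in kb from the most upstream 5' end along the direction of transcription and up to 2000 bp beyond the gene; the grey bar is the gene, black ticks are annotated 5' ends, and filled points are among the 872 strongest peaks of their list. Filled points lie at akt-2, at the internal 5' end of sgk-1 and upstream of daf-2, and in replicate 2 alone also in a daf-16 intron and further upstream of akt-2.

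Together the 10 genes held 29 pooled summits, 10 at 5' ends and 19 in gene bodies. A peak of each replicate overlapped 16 of them (55.2%), against 61.0% of all 13300 nuclear pooled peaks. A further 9 were overlapped by replicate 1 only and 4 by replicate 2 only. The same split was not counted for all pooled peaks. The replicates listed about as many member summits, 50 in replicate 1 and 52 in replicate 2, with 13 at 5' ends in each.

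The words were about as frequent at these 29 summits as at all pooled summits. The SKN-1 word was within 100 bp of 4, in akt-1, daf-16 and daf-2 (13.8%, against 13.6% of all pooled summits), and its short form within 100 bp of 18 (62.1%, against 59.3%). TGATAAG was at 3, in akt-1 and sgk-1 (10.3%, against 11.1%), and the DAF-16 word at 3 (10.3%, against 8.39%). TGATAA was at 9 (31.0%, against 29.3%), the strict PHA-4 word at 3 (10.3%, against 9.35%) and GAGAGAGA at 2 (6.90%, against 4.33%).

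**Figure D4:**
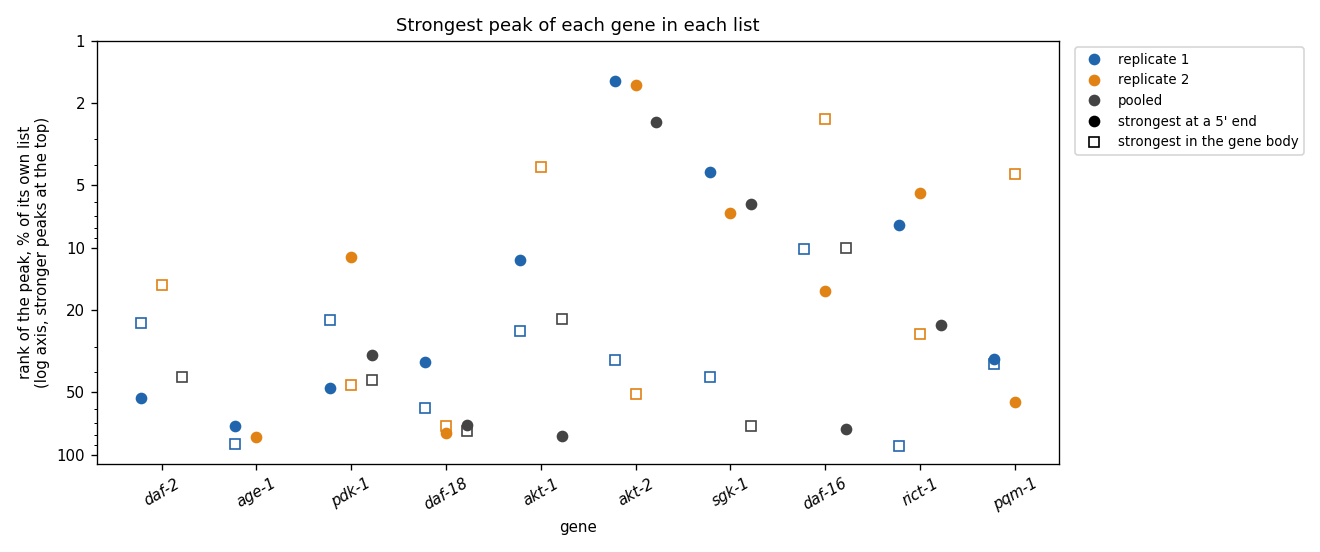
Strongest peak of each gene at a 5' end (filled circles) and in the gene body (open squares) in replicate 1, replicate 2 and the pooled list, as rank in percent of the list on a log axis with stronger peaks at the top. The akt-2 circles lie at 1.56%, 1.64% and 2.47%, the sgk-1 circles at 4.31%, 6.76% and 6.14%, and the age-1 circles at 72.8% and 82.4% of their lists.

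Other genes of the pathway were counted in the same way. Of 95 genes in 7 further lists, 5 had an optimal summit at a 5' end, a share close to the 3.89% of all genes, and 34 had a pooled one, against 29.2%. Of 39 insulin-like ligand genes 1 did, ins-39 (signal 79.9, rank 156, 551 bp upstream). Of 5 receptor-proximal adaptors and subunits 1 did, sem-5, an adaptor of the GRB2 type (signal 52.8, rank 470). Of 8 genes of the TOR complexes and their outputs 2 did: rheb-1, which encodes the small GTPase that activates TOR complex 1, had the strongest peak of all these genes (signal 114, rank 67 of 872, 367 bp upstream), in a window it shares with spk-1, and ragc-1, a Rag GTPase gene, had a signal of 48.9 and rank 609, with Y24F12A.1 in the same window.

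Of 16 DAF-16 regulators and cofactors 1 had an optimal summit at a 5' end, ftt-2, which encodes a 14-3-3 protein that binds DAF-16 (signal 61.6, rank 306, 553 bp upstream). It ranked 156 in replicate 1 and 2604 in replicate 2. The AMP-activated kinase gene aak-2, named after its value was seen, had an optimal summit in its body only, as 0.516% of all genes did. None of 4 phosphatase regulators, 16 DAF-16 target genes and 7 dod genes, which are lower in daf-2 mutants, had an optimal summit at a 5' end. The share of all genes was 3.89%, and lists this short cannot show a lack of peaks against it.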

How the data were processed

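The peak lists were deposited in builds ce10 and ce11, and the ce11 lists were used. Each gives per peak a position, a summit, a signal and a −log10 q value, all deposited by the authors. The deposited readme files name the inputs of a list: alignments of 1 or both libraries and 1 more file, the same for both replicates, for the relaxed lists, and the 3 relaxed lists for the optimal one. The sources used here name no aligner, peak caller or IDR threshold. The control experiment was not analysed here. All 872 optimal peaks were identical to the strongest pooled ones.

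Peaks were ranked by signal within a list. Summits were placed against all annotated transcripts of Ensembl release 115, and no peak passed a chromosome end of the RefSeq WBcel235 sequence. The 10 genes had RefSeq coordinates within 50 bp of Ensembl's. Coordinates are 1-based. The assignment and the word search were run on simulated summits and planted words, with the same 5' ends, window limits and word forms. An error in those settings could not have shown in that check. Python 3.11 with numpy 2.4.6 and matplotlib 3.10.9 was used.

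With 1 group, no test between groups exists, and counts of members are set beside the share of all 19973 nuclear protein-coding genes. The members and lists were chosen with earlier results of these data known. Named genes are all members, the genes that share a member's optimal window, and the strongest 4 of each further list with an optimal summit at a 5' end; neighbours and aak-2 were added later. The names ins-38 and dod-8 matched no protein-coding gene. Alternatives were other windows, 5' ends, overlap rules, peak sets and word windows.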

Additional observations from a re-analysis of the deposited data

How the results depend on the processing

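In this paragraph a percentage in brackets is the share of all genes under the same setting. The 2 members with an optimal 5' end summit (3.89%) became 1, sgk-1, with a window of 500 bp upstream to 100 bp downstream (3.16%). They became 1, akt-2, with the most upstream 5' end only (3.63%) or with the 436 strongest optimal peaks (2.06%). They became 7 with the pooled list (29.2%). From the 872 strongest peaks of single replicates the count was 1 for replicate 1 (3.80%) and 1 for replicate 2 (3.62%). With 2000 bp upstream it was 3, daf-2 being added, against 5.12% of all genes. Any overlap (4.22%) and q limits (7.70% to 10.5%) left it at 2 or 3. The count of 0 with a body summit only (0.516%) was 0 from replicate 1 (0.546%) and 1, daf-16, from replicate 2 (0.601%). With its 1744 strongest peaks replicate 1 gave 2 members, akt-2 and sgk-1 (6.82%), and replicate 2 gave 2, akt-2 and rict-1 (6.49%). With its 436 strongest, replicate 1 gave 1, akt-2 (2.00%), and replicate 2 gave 0 (1.90%). The 5 genes of the further lists (3.89%) became 2 with the shorter window (3.16%) and 9 with the longer window (5.12%). They became 3 with the 436 strongest (2.06%) and 34 with the pooled list (29.2%). For the further lists these alternatives were chosen after seeing the data. Within 50 bp of the 29 pooled summits the SKN-1 word was at 2, its short form at 10 and the DAF-16 word at 0. The strict PHA-4 word was at 1 and GAGAGAGA at 1. Within 150 bp the SKN-1 word was at 7. A narrower window can only hold as many matches or fewer. For these widths the share of all pooled summits was not counted. No paired analysis was possible because there is 1 group. With unknown depth, a gene without a peak is not shown to lack binding.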

Other observations

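Some of the better-ranked summits near these genes lay beyond their 3' ends. Past the 3' end of daf-2, at III 2994019, the pooled list had a peak of rank 2821 (q 0.151), which ranked 3468 in replicate 1 and 17785 in replicate 2. Past the 3' end of pqm-1, where arrd-6 is transcribed towards it, replicate 1 had a summit at II 11149942 of rank 2367 (q 0.0433), and replicate 2 had none overlapping it, its own summit lying in the 3' UTR of pqm-1 at II 11150482. Past daf-16, replicate 2 had a summit at I 10777714 of rank 2966 (q 0.045), and the overlapping peak of replicate 1 ranked 6271 (q 0.359), with its summit 330 bp away. None of these was in the optimal list.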
